A study of Homo sapiens with 18 samples.

Results

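The measurement described here is the difference, gene by gene, between the response to lipopolysaccharide (LPS) of THP-1 cells that received an siRNA against TRAFD1 (KD) and that of THP-1 cells that received no siRNA (WT). For each gene the log2 fold change on LPS in WT was subtracted from the log2 fold change on LPS in KD, so that a negative value is a smaller (less positive or more negative) change on LPS in KD. All genes that passed a filter on low counts were members, which were 16678 of the 63677 genes in the deposited table, and the difference rested on 12 of the 18 libraries of the series. THP-1 is a human acute monocytic leukaemia line that serves as a model of monocytes, so that every library came from 1 cell line. The KD cells received 25 nM of a single siRNA, and 72 h later they were kept for 4 h with LPS from Escherichia coli at 10 ng/ml (KD_LPS) or with medium (KD_unstimulated). WT cells were handled over the same times with and without LPS (WT_LPS, WT_unstimulated); their sample characteristics call them untreated, whereas the treatment text gives them the transfection mix without siRNA, and siRNA and mix cannot be told apart in a comparison with WT if the first account holds. SCR cells, which received a non-targeting siRNA at 25 nM and the same LPS or medium (SCR_LPS, SCR_unstimulated), appear below only where a value for a second siRNA helps to read a value for KD. Each group held 3 libraries; replicates 1 to 3 are those in medium and replicates 4 to 6 those given LPS.

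LPS, a component of the outer membrane of Gram-negative bacteria, is bound by CD14 and by the TLR4 and MD-2 complex on monocytes. Adaptor proteins pass the signal to kinases that free the transcription factor NF-kB from its inhibitors, and NF-kB then switches on cytokines, chemokines, adhesion molecules and a set of its own inhibitors that bring the response back down. A second branch leads to interferon beta and to interferon-stimulated genes. TRAFD1, a zinc finger protein, is known as a negative feedback regulator of Toll-like receptor signalling.

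The siRNA target as the labels print it is shown first because it defines the KD group. This 21-base run matched the exons of 1 gene, TRAFD1, on the plus strand of chr12:112589676-112589696 (GRCh37), in exon 10 of 12 of the canonical transcript, where it covers codons 451 to 457.
TRAFD1 siRNA target: CCCAGCCGACCCATTAACAAT
The authors counted reads in the last 500 bases of each gene, and the target ends 1191 bases before the end of that transcript, so that the TRAFD1 count is of the 3-prime end of the transcript and not of the targeted stretch. TRAFD1 (ENSG00000135148, chr12:112563342-112591408) stood at 22.2, 21.2 and 18.3 CPM (counts scaled to a common library size) in the 3 WT libraries without LPS and at 11.6, 5.37 and 9.02 CPM in the 3 KD libraries without LPS. The KD libraries were all below the WT libraries in this state (log2 fold change -1.23, adjusted p = 0.00156). With LPS the WT libraries held 19.2, 20.3 and 11.6 CPM and the KD libraries 15.8, 14.0 and 13.8 CPM. In this state the KD values lay within the WT range and the test was not passed (-0.23 ± 0.23, adjusted p = 0.563), so that a lower TRAFD1 level was not detected in the libraries labelled KD with LPS, which does not show equal levels. Of the 3 WT libraries with LPS, 2 were above every KD library, and the SCR libraries with LPS, at 21.9, 27.5 and 18.7 CPM, all were. TRAFD1 itself had a difference in LPS response of 1.00 ± 0.32 (SE), which did not pass (adjusted p = 0.169) in the model over all libraries, but passed without the KD_unstimulated replicate 1 (1.28, adjusted p = 0.0187) and with no filter on low counts (1.01, adjusted p = 0.0102).

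Total counts of the 12 libraries ran from 10094675 to 21900309, and a count of 0 is compatible with up to 3 counts, or 0.133 to 0.294 CPM. This floor covers counting error only. Of the 20 monocyte markers, 18 had a mean over 1 CPM, and their summed level lay between 1126 and 1282 CPM in every library; FCN1 and CEBPA were the exceptions. Summed T cell markers reached at most 1.02 CPM, epithelial markers 0.604 CPM and erythroid markers 0.113 CPM; B cell markers summed to 2.80 to 6.28 CPM and fibroblast markers to 0.604 to 2.94 CPM. The KD_unstimulated replicate 1 stood apart: the SD of its log2 deviations from its group mean was 0.267 over 7084 genes above 16 CPM, the highest of the 18 libraries, whose lowest was 0.110. Its deviations had a Spearman correlation of -0.300 with the GC content of the counted ends over 16235 genes, against -0.322 in the WT_unstimulated replicate 1 and between -0.146 and 0.206 in the other 10 WT and KD libraries. Counts of genes are therefore also given without that library below.

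Of the 16678 genes, 60 passed the threshold of 0.05 for the adjusted p of edgeR's quasi-likelihood test (0.360% of those tested), 50 with a smaller LPS response in the libraries labelled KD (0.300%) and 10 with a larger one (0.0600%). Before adjustment 2593 genes had a p under 0.05. Over all genes 8003 (48.0%) had a difference below zero, and the median difference was 0.02. The 50 had differences from -2.63 to -0.55 with a median of -1.01; the 10 ran from 0.56 upwards. Chemokines of the CCL3 and CCL4 family, TNF, CD83, the NF-kB subunits RELB and NFKB1, 4 inhibitors of NF-kB signalling and the iron and stress genes HMOX1, FTH1 and SQSTM1 were among the 50. Leaving out single libraries moved these counts by more than 1.5 times. Without the KD_unstimulated replicate 1 there were 1313 genes, 360 smaller and 953 larger, and all 60 were among them. Without the WT_unstimulated replicate 1 or 2 there were 28 and 176 genes, without the WT_LPS replicate 4, 5 or 6 there were 27, 26 and 24, without the KD_unstimulated replicate 2 there were 25, and without the KD_LPS replicate 4, 5 or 6 there were 35, 22 and 21. Across 12 fits that each left out 1 library and 7 fits with other settings, 16 of the 60 passed every time, and 0 of the 60 changed sign in any. The excess of smaller over larger responses did not hold in every fit, as without the filter on low counts, where 193 genes were smaller and 536 larger.

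**Figure D1:**
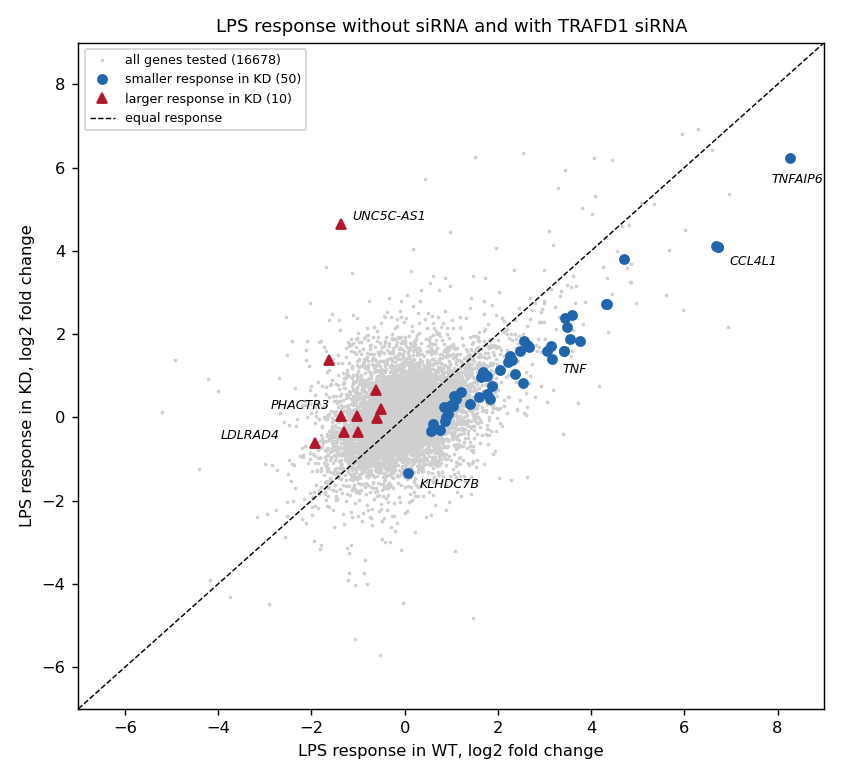
Log2 fold change on LPS in WT (horizontal axis) and in KD (vertical axis) for each of the 16678 genes tested (grey points), with the 50 genes of smaller response in KD as blue circles and the 10 of larger response as red triangles; the dashed line marks an equal response. The blue circles lie to the right of zero and below the line, with CCL4L1 at 6.73 in WT and 4.09 in KD, and the red triangles lie to the left of zero and above it.

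Promoter sequences are shown because 6 NF-kB subunits and inhibitors were among the 50 genes. RefSeq promoters of GRCh38.p14, running from 250 bases before to 50 bases after the start of the gene, were found for 33 of the 50 genes and for 7 of the 10. The NF-kB consensus, a motif of 10 letters searched by name on both strands, occurred in 6 of the 33 (18.2%) and in 5 of the 7 (71.4%), against 12.9% of the 10721 promoters of tested genes and 10.8% of all 27305. Windows of 40 bases around the match, read 5-prime to 3-prime on the gene's strand with the match in capitals, follow for all 6 genes of smaller response.
SDC4 (chr20:45348497-45348536, minus strand): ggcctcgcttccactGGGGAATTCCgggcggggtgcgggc
LTB (chr6:31582487-31582526, minus strand): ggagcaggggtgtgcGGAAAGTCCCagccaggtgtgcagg
CXCL11 (chr4:76036122-76036161, minus strand): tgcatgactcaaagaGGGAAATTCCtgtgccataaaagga
TNFAIP3 (chr6:137867177-137867216, plus strand): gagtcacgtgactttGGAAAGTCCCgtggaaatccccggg
GPD2 (chr2:156435482-156435521, plus strand): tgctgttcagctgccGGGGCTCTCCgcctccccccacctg
NFKB1 (chr4:102501295-102501334, plus strand): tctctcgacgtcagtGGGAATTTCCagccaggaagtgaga
The printed matches of these 6 genes lay before the gene's start. TNFAIP3 held 2 matches, both before the start. LTB also held 2 in that promoter, of which only the printed 1 lay wholly before the start. The other 4 held 1. Among the genes of larger response, the windows of CD300A, LDLRAD4 and HIPK1 show the match before the start.
CD300A (chr17:74466226-74466265, plus strand): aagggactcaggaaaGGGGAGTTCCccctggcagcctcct
LDLRAD4 (chr18:13217806-13217845, plus strand): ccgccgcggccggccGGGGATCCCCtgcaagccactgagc
HIPK1 (chr1:113929084-113929123, plus strand): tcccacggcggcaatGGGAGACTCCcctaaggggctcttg
A match is a run of letters and was not tested as a bound site, and the share among 7 genes rests on few promoters.

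The chemokines CCL4L1 and CCL3L1, which draw monocytes and T cells to a site of infection, both rose on LPS in WT and in KD, and by less in KD. CCL4L1 (ENSG00000205020, chr17:34538310-34540280, GRCh37) was at 2.49, 1.45 and 2.36 CPM in the WT libraries without LPS and at 229, 259 and 206 CPM with LPS. In KD it was at 13.2, 7.77 and 11.5 CPM without LPS and at 186, 181 and 191 CPM with LPS. Thus every KD library without LPS was above every WT library, and every KD library with LPS was below. The log2 fold change on LPS was 6.73 ± 0.20 (SE, n = 3 and 3) in WT and 4.09 ± 0.17 in KD, a difference of -2.63 ± 0.25 (edgeR adjusted p = 8.14e-06). CCL4L2, a near-identical copy, had almost the same counts (-2.62), and reads of the 2 copies cannot be told apart in these values. CCL3L1 (chr17:34623842-34625731) stood at 9.78, 11.99 and 10.4 CPM in WT without LPS, at 106, 114 and 119 CPM with LPS, at 29.7, 33.1 and 22.6 CPM in KD without LPS and at 89.3, 84.1 and 82.8 CPM with LPS. The order of the groups was the same as for CCL4L1, with responses of 3.41 in WT and 1.58 in KD (difference -1.83 ± 0.22, edgeR adjusted p = 0.000101). Among 20 chemokines and chemokine receptors tested, 4 passed, all with smaller responses, against 0.300% of all genes (CCL4L1, CCL4L2, CCL3L1 and CXCL11, the last chosen after its value was seen, -1.60 ± 0.32). Of the 20, 14 were below zero, beside 48.0% of all genes. Their median was -0.74 against 0.02 for all genes. CXCL8, the main attractant of neutrophils, had a difference of -1.002 ± 0.66 that did not pass (edgeR adjusted p = 0.482). The symbols CCL3, CCL3L3, CCL4 and CCL23 were not matched to an identifier of the table, so the list counts leave them out. Their genes may still have been tested under an identifier without a symbol. Of the 60 genes, 6 had such an identifier, all among the 50, and 1 of them, ENSG00000256515, held nearly the counts of CCL3L1 (difference -1.81). The others were ENSG00000129277 (-2.57 ± 0.27, edgeR adjusted p = 3.71e-05), ENSG00000006075 (-1.92 ± 0.23, edgeR adjusted p = 0.000101), ENSG00000112096 (-0.91 ± 0.14), ENSG00000155130 (-0.93 ± 0.16) and ENSG00000161570 (-0.95 ± 0.16). Which genes these are was not resolved here.

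Cytokines gave a similar count. TNF (ENSG00000232810, chr6:31543342-31546113), the central early cytokine of the LPS response, was at 12.7, 18.7 and 16.2 CPM in WT without LPS and at 45.2, 49.6 and 34.9 CPM in KD without LPS. With LPS it was at 132, 153 and 137 CPM in WT and at 117, 103 and 123 CPM in KD. Groups did not overlap in either state, and the difference between KD and WT was larger without LPS (log2 1.45, adjusted p = 1.10e-05) than with it (-0.30, adjusted p = 0.181). The response to LPS was 3.16 in WT and 1.40 in KD (difference -1.76 ± 0.21, edgeR adjusted p = 0.000101). LTB, a lymphotoxin subunit encoded beside TNF, took another form: it was at 64.7, 60.8 and 71.1 CPM in WT and at 55.2, 75.2 and 67.2 CPM in KD without LPS, and at 350, 346 and 405 CPM in WT and at 201, 203 and 194 CPM in KD with LPS. Its values overlapped without LPS and were lower in every KD library with LPS (difference in response -0.88 ± 0.17, edgeR adjusted p = 0.0176). IL4I1, a secreted enzyme that breaks down aromatic amino acids and is induced in myeloid cells, had responses of 3.14 in WT and 1.70 in KD (-1.43 ± 0.28, adjusted p = 0.0293). The list of cytokines and cytokine receptors had 24 members tested and held IL4I1, although that is an enzyme. TNF, LTB and IL4I1 passed with smaller responses (12.5% against 0.300% of all genes) and 0 with larger ones, and the median was -0.33. In the 12 fits that each left out 1 library, TNF passed in 12, LTB in 7 and IL4I1 in only 4. IL6R, a cytokine receptor outside the list, had a larger response, described further on. IL1B, whose precursor yields the fever-inducing interleukin, was at 32.0, 36.3 and 19.4 CPM in WT and at 45.7, 38.4 and 33.8 CPM in KD with LPS, and its difference of 0.88 ± 0.40 did not pass (edgeR adjusted p = 0.300).

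**Figure D2:**
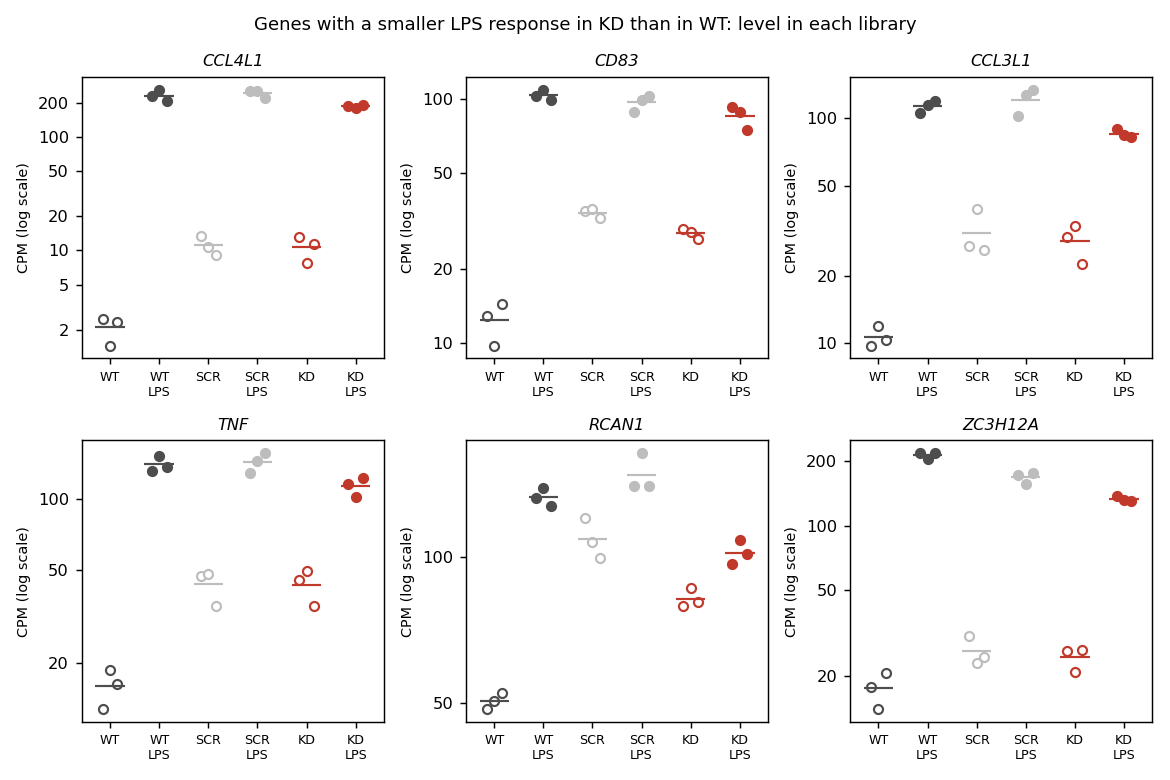
CPM on a logarithmic axis in each of the 18 libraries for CCL4L1, CD83, CCL3L1, TNF, RCAN1 and ZC3H12A, with open circles for libraries without LPS, filled circles for libraries with LPS and a bar at the group mean. In each panel the 3 KD libraries without LPS lie above the 3 WT libraries without LPS, and the 3 KD libraries with LPS lie below the 3 WT libraries with LPS; for CCL4L1 the means were 2.10 and 10.8 CPM without LPS.

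NF-kB subunits and the inhibitors of the pathway formed the list with the largest share past the threshold. Of 20 tested, 6 passed with a smaller response and 0 with a larger one (30.0% against 0.360% of all genes). In this list 19 were below zero, beside 48.0% of all genes, and the median was -0.73. The median LPS response of the list was 2.31 in WT, 1.27 in SCR and 1.26 in KD. ZC3H12A (chr1:37940181-37949978), an RNase that degrades cytokine transcripts, was at 17.7, 14.0 and 20.6 CPM in WT without LPS and at 26.0, 20.7 and 26.2 CPM in KD without LPS. With LPS it rose to 217, 204 and 218 CPM in WT and to 138, 132 and 131 CPM in KD, so that all KD libraries with LPS were below all WT libraries (difference in response -1.14 ± 0.18, edgeR adjusted p = 0.00502). TNIP1, which binds ubiquitin and acts with TNFAIP3 to hold NF-kB back, differed mainly with LPS: 327, 320 and 318 CPM in WT against 223, 196 and 199 CPM in KD (difference -0.78 ± 0.13, edgeR adjusted p = 0.00725). RELB, a subunit of the non-canonical NF-kB dimer, was at 60.8, 103 and 77.1 CPM in WT and at 99.6, 164 and 144 CPM in KD without LPS, with overlap, and at 413, 401 and 433 CPM in WT and at 304, 253 and 285 CPM in KD with LPS, without overlap (-1.32 ± 0.23, edgeR adjusted p = 0.0113). The other 3 members that passed, named after their values were seen, were NFKB1, which encodes the p105 and p50 subunit (-0.72 ± 0.16), NFKBIE, an inhibitor of NF-kB (-0.76 ± 0.16), and TNFAIP3, the deubiquitinase A20 (-1.05 ± 0.23). In the 12 fits that each left out 1 library, ZC3H12A and TNIP1 passed in 12 and RELB in 11. NFKBIE passed in only 4, TNFAIP3 in 3 and NFKB1 in 2. NFKBIA, the inhibitor IkB alpha, responded with 2.46 in WT and 1.94 in KD and did not pass (-0.51 ± 0.12, edgeR adjusted p = 0.0851). Without the KD_LPS replicate 5 or 6 the count over all lists fell from 22 to 9 and 12, and without the KD_unstimulated replicate 1 it rose to 92, of which 39 were larger.

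Receptors and adaptors upstream of NF-kB come next. Of 22 members of the list of the LPS receptor and its adaptors, 0 passed (3 at an unadjusted p under 0.05 by edgeR), and the median was 0.15. Over all 16678 genes 0.360% passed and 2593 had an unadjusted p under 0.05. A count of 0 in a list of this size is near that share and is no result about its members. TLR4, the signalling receptor of LPS, was at 20.1, 12.9 and 13.1 CPM in WT and at 7.99, 8.10 and 7.62 CPM in KD without LPS, and at 8.85, 6.52 and 6.46 CPM in WT and at 6.20, 9.24 and 8.23 CPM in KD with LPS. The KD libraries were lower without LPS and overlapped with WT with LPS, and the difference in response of 1.09 ± 0.32 did not pass (edgeR adjusted p = 0.145). In the list of immediate-early factors and MAP kinase phosphatases 0 of 28 passed, again near the share of all genes (11 at an unadjusted p under 0.05). EGR1, a growth-response transcription factor, had the smallest p (-1.09 ± 0.27, edgeR adjusted p = 0.0880).

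Costimulatory and adhesion molecules were mixed. CD83 (chr6:14117487-14137149), a surface marker of activated antigen-presenting cells, was at 12.9, 9.72 and 14.5 CPM in WT without LPS and at 103, 109 and 99.8 CPM with LPS. In KD it was at 29.3, 28.4 and 26.6 CPM without LPS and at 93.2, 88.4 and 74.8 CPM with LPS. The groups did not overlap in either state, and the response was 3.06 in WT and 1.60 in KD (difference -1.45 ± 0.17, edgeR adjusted p = 0.000101). CD44, a receptor for hyaluronan, rose by 2.04 in WT and by 1.14 in KD (-0.90 ± 0.16, edgeR adjusted p = 0.0105). ICAM1, the adhesion ligand of leukocyte integrins, was at 1.19, 3.18 and 2.80 CPM in WT and at 7.92, 5.37 and 6.30 CPM in KD without LPS, and at 50.4, 51.1 and 41.5 CPM in WT and at 43.6, 37.9 and 47.8 CPM in KD with LPS. It was thus higher in KD without LPS and overlapped with LPS (difference in response -1.63 ± 0.31, edgeR adjusted p = 0.0217). These 3 were the members that passed among 21 tested (14.3% against 0.360% of all genes). Of the 21, 11 were below zero, beside 48.0% of all genes, and the median was -0.21.

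Outside the immune lists, genes of oxidative stress and iron handling passed. HMOX1, which breaks down haem, was at 15.8, 21.6 and 21.0 CPM in WT and at 33.0, 46.2 and 39.2 CPM in KD without LPS, and at 223, 220 and 208 CPM in WT and at 186, 157 and 192 CPM in KD with LPS, with no overlap in either state (difference in response -1.30 ± 0.23, edgeR adjusted p = 0.0113). SQSTM1, the autophagy receptor p62, had a difference of -0.68 ± 0.12 (edgeR adjusted p = 0.00920). FTH1, the ferritin heavy chain and one of the most abundant transcripts here, went from 2103, 2461 and 2701 CPM to 5540, 5647 and 5626 CPM on LPS in WT and from 2829, 3167 and 3037 CPM to 4603, 4575 and 4622 CPM in KD (-0.60 ± 0.11, edgeR adjusted p = 0.0164). FTH1 has many processed pseudogenes, and how reads shared with them were counted is not given in the sources used here. These 3 of 20 passed (15% against 0.360% of all genes), 10 of 20 were below zero (48.0% of all genes), and the median of that list was -0.0019. SOD2, also in that list, was not matched to an identifier and is not in these counts. RCAN1 (chr21:35885440-35987412), an inhibitor of calcineurin, was at 48.6, 50.5 and 52.3 CPM in WT and at 79.0, 86.3 and 80.7 CPM in KD without LPS, and at 133, 139 and 127 CPM in WT and at 96.7, 108 and 101 CPM in KD with LPS. Its response was 1.40 in WT and 0.32 in KD, the smallest KD response of the 6 genes plotted by library (difference -1.08 ± 0.14, edgeR adjusted p = 0.000170). SDC4, a heparan sulphate proteoglycan whose promoter window with the motif is printed above, had responses of 2.66 in WT and 1.69 in KD (-0.98 ± 0.16, edgeR adjusted p = 0.00864). Other genes of smaller response that had a symbol and were in no list were named after their values were seen. They included GRAMD1A, LIMK2, RETREG1, TIFAB, KLHDC7B, NMRAL2P, TNFAIP6, KCNE1, PDGFA, WTAP, ZMIZ2, AIFM2, TYMP, BTG3, ABCC3, GPD2, DMAC1, MSTO1 and PLA2G4C. The largest response among them was that of TNFAIP6, a secreted protein that binds hyaluronan, at 8.26 in WT and 6.23 in KD (-2.03 ± 0.41), and GPD2, the mitochondrial glycerol phosphate dehydrogenase, had the smallest difference of the 50 (-0.55 ± 0.12).

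In the type I interferon list 1 of 42 passed (2.38% against 0.360% of all genes), ISG20, an exonuclease that acts on viral RNA (-0.60 ± 0.13, edgeR adjusted p = 0.0466). ISG20 passed in only 2 of the 12 fits that each left out 1 library, so that share rests on 1 gene near the threshold. The median of the list was -0.09, with 32 of 42 below zero beside 48.0% of all genes. The study linked 41 genes to TRAFD1 through genetic associations in blood samples of other people, called trans-mediated; 35 of them were tested, 3 passed with a smaller response and 0 with a larger one (8.57% against 0.360% of all genes), 24 were below zero, and the median was -0.21. PSTPIP2, an actin-binding adaptor, was at 32.4, 31.7 and 31.0 CPM in WT and at 26.9, 29.1 and 36.8 CPM in KD without LPS, and at 134, 144 and 161 CPM in WT and at 84.1, 73.9 and 73.3 CPM in KD with LPS. Its values overlapped without LPS and were lower in every KD library with LPS (-0.89 ± 0.16, edgeR adjusted p = 0.0122). GBP1, an interferon-induced GTPase, was at 1.24, 1.45 and 1.87 CPM in WT and at 1.75, 3.88 and 4.12 CPM in KD without LPS, and at 18.2, 15.9 and 19.98 CPM in WT and at 10.7, 12.6 and 12.5 CPM in KD with LPS (-1.65 ± 0.34, edgeR adjusted p = 0.0369). ICAM1, described above, was the other member of this list that passed. In the 12 fits that each left out 1 library, PSTPIP2 and ICAM1 passed in 9 and GBP1 in only 3.

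In the remaining lists 0 members passed by edgeR, beside 0.360% of all genes. Over all 16678 genes, 8003 (48.0%) were below zero and 2593 had an unadjusted p under 0.05, for comparison with the counts that follow. The 77 cytosolic ribosomal proteins had a median of -0.19 with 63 below zero and 29 at an unadjusted p under 0.05, and RPS2 had the smallest p (-0.36 ± 0.09, adjusted p = 0.112); it also has processed copies that can share reads. The 24 genes of ribosome biogenesis had a median of -0.33 with 19 below zero and 11 at an unadjusted p under 0.05 (PPAN, -0.95 ± 0.28, adjusted p = 0.144). The 19 ER chaperones had the highest median, 0.26, with 10 at an unadjusted p under 0.05 (HYOU1, -0.46 ± 0.15, adjusted p = 0.175). Antigen processing by MHC class I (median -0.02) and MHC class II (-0.18) had PSME2 (-0.42 ± 0.13) and CD74 (-0.36 ± 0.15) as their members of smallest p. In the metabolic and stress lists these were ASNS for amino acid stress (-0.46 ± 0.13, list median -0.06), HSD17B7 for cholesterol synthesis (-0.75 ± 0.24, 0.01), PFKP for glycolysis and hypoxia (-0.46 ± 0.15, 0.10) and HSPA1A for heat shock (0.70 ± 0.26, -0.06), the last a gene with a near-identical copy. RFC4 for DNA replication (-0.41 ± 0.16, -0.07) and PTTG1 for mitosis (-0.40 ± 0.13, 0.10) had adjusted p values of 0.239 and 0.170. Monocyte markers had a median of 0.07 over 18 genes, with LYZ at 0.65 ± 0.26 (adjusted p = 0.251). Of B cell markers 2 and of fibroblast markers 1 could be tested, with CD79B at -0.34 ± 1.04 and COL1A1 at -0.50 ± 0.68. In all, 22 of the 60 genes were in a list, out of 543 list genes tested, beside 60 of 16678 genes tested (0.360%). All 22 had smaller responses, as did 50 of the 60. The lists were chosen with earlier results of these data known, so these counts are a description.

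**Figure D3:**
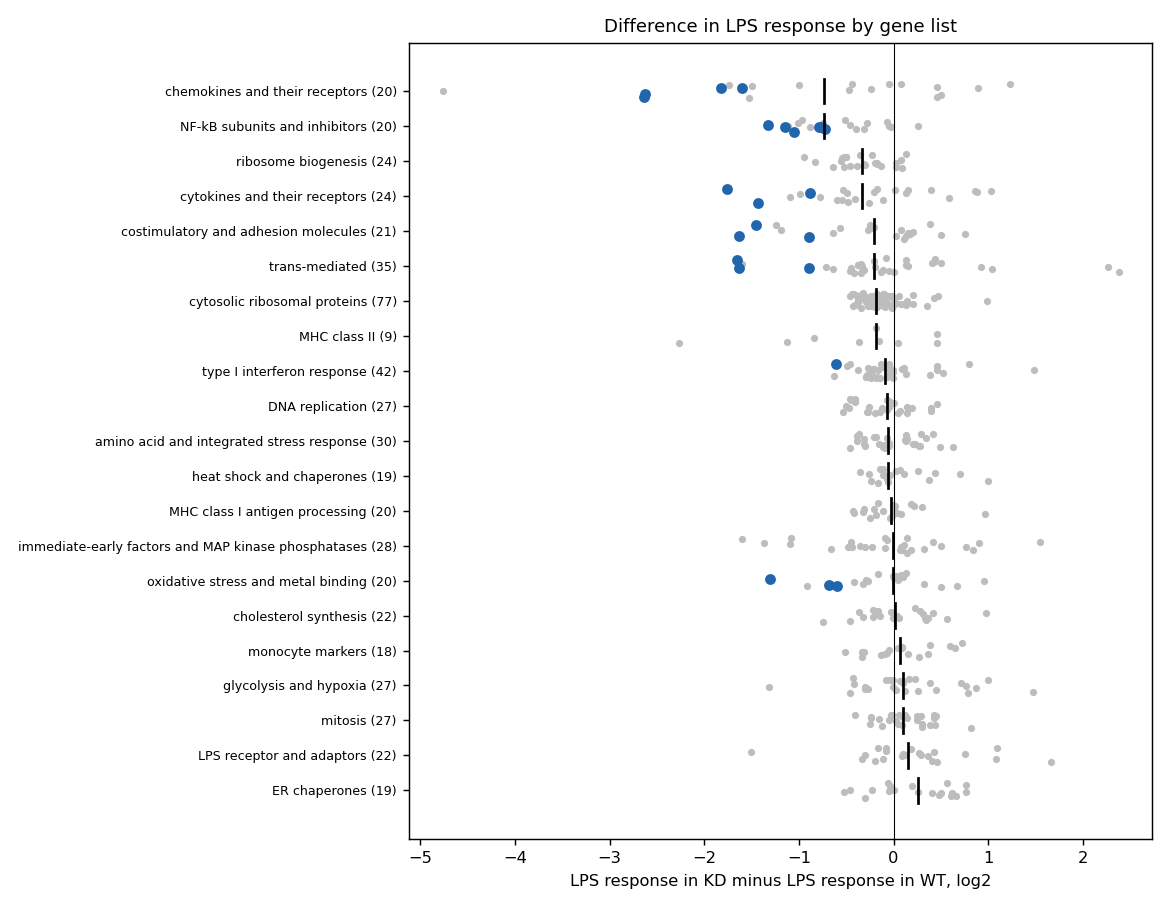
Difference in LPS response between KD and WT on the log2 scale for each tested member of 21 gene lists, with the number tested in brackets, members past the threshold in blue, other members in grey and the list median as a black bar. The 20 NF-kB subunits and inhibitors lie left of zero except for 1 (median -0.73), and the 19 ER chaperones have a median of 0.26 with 0 past the threshold.

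The 50 smaller responses were next split into what differed before and after LPS; these values share libraries with the difference itself and are a description. All 50 had a fitted rise on LPS in WT, of which 49 passed (7.01% of all genes rose). In KD 39 of the 50 rose (6.41% of all genes) and 1 fell (5.05% of all genes), KLHDC7B, a kelch protein named after its values were seen, at 5.65, 9.63 and 7.78 CPM in WT and at 19.5, 27.3 and 27.7 CPM in KD without LPS, and at 8.08, 7.19 and 8.91 CPM in WT and at 10.7, 9.72 and 8.99 CPM in KD with LPS. Without LPS, 39 of the 50 were higher in KD than in WT (5.85% of all genes) and 0 lower, with a median log2 of 0.69. With LPS, 20 were lower in KD (4.55% of all genes) and 0 higher, with a median of -0.35. The difference between KD and WT passed only without LPS for 30 genes, only with LPS for 11 and in both states for 9. Over all genes 11.7% passed without LPS and 10.8% with LPS. Their shares for 1 state alone or for both were not computed, so this split is a description of the 50. The absolute difference was larger without LPS for 35 of the 50, as for TNF and CD83, and larger with LPS for 15, as for LTB, PSTPIP2, TNIP1 and ZC3H12A.

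**Figure D4:**
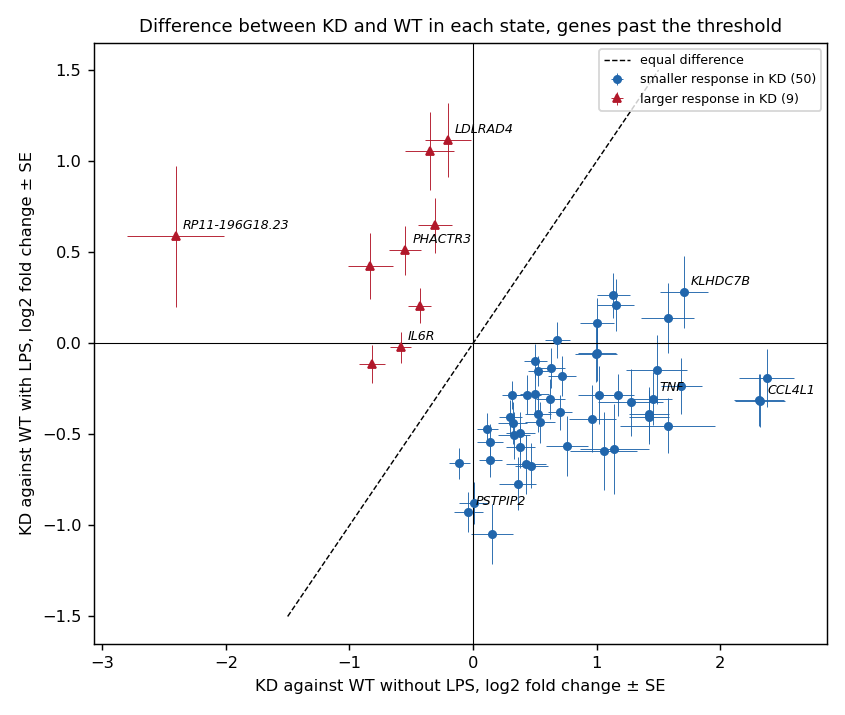
Log2 fold change of KD against WT without LPS (horizontal axis) and with LPS (vertical axis), each with its SE as bars, for the 50 genes with a smaller response in KD (blue circles) and 9 of the 10 with a larger one (red triangles); the dashed line marks an equal difference, and UNC5C-AS1 is left out because it had 0 or 1 count in the KD libraries without LPS. CCL4L1 lies far to the right at 2.32 without LPS and just below zero with LPS at -0.32, whereas PSTPIP2 lies near zero without LPS at -0.04 and at -0.93 with LPS.

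Larger responses in KD were found for 10 genes, and each was a gene whose fitted level went down on LPS in WT, 9 of them past the threshold (7.26% of all genes fell). PHACTR3 (chr20:58152564-58422766), a regulator of phosphatase and actin, was at 52.5, 43.0 and 48.2 CPM in WT without LPS and at 25.8, 24.5 and 20.7 CPM with LPS. In KD it was at 32.8, 32.0 and 33.6 CPM without LPS and at 31.9, 31.6 and 37.6 CPM with LPS. It therefore fell on LPS in WT (-1.02) and had a change of 0.04 in KD (adjusted p = 0.892), and the groups did not overlap in either state (difference 1.06 ± 0.19, edgeR adjusted p = 0.0113). CD300A (chr17:72462538-72480933), an inhibitory receptor of myeloid cells, was at 16.6, 15.3 and 14.5 CPM without LPS and at 6.03, 5.85 and 6.07 CPM with LPS in WT, and at 13.1, 11.4 and 11.8 CPM and at 14.2, 10.0 and 13.2 CPM in KD (difference 1.41 ± 0.29, edgeR adjusted p = 0.0368). ITM2C (chr2:231729354-231743963), a membrane protein related to the amyloid-binding BRI family, was at 43.5, 34.1 and 37.4 CPM without LPS and at 27.4, 27.6 and 20.5 CPM with LPS in WT, and at 27.7, 20.6 and 16.3 CPM and at 30.1, 39.2 and 31.9 CPM in KD. Its level fell in WT and rose in KD (difference 1.26 ± 0.26, edgeR adjusted p = 0.0355). RSRP1 (chr1:25568740-25664704), an arginine and serine-rich protein, was at 217, 188 and 183 CPM in WT and at 116, 98.7 and 118 CPM in KD without LPS, and at 154, 135 and 125 CPM in WT and at 124, 126 and 133 CPM in KD with LPS, so that KD was below WT in the first state and overlapped in the second (0.71 ± 0.15, edgeR adjusted p = 0.0369).

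IL6R, the receptor of interleukin 6, fell on LPS in WT (-0.58) and stayed at -0.02 in KD (difference 0.56 ± 0.12, edgeR adjusted p = 0.0424). LDLRAD4, a membrane inhibitor of TGF-beta signalling, fell by 1.93 in WT and by 0.61 in KD (difference 1.32 ± 0.28, edgeR adjusted p = 0.0369). HIPK1, a nuclear kinase, had 0.64 ± 0.14 (adjusted p = 0.0403) and EVI2B, a membrane glycoprotein of myeloid cells, 0.95 ± 0.20 (adjusted p = 0.0435). The other 2 were non-coding and low. RP11-196G18.23 (chr1:149802876-149804109), an antisense transcript, held 87, 37 and 66 counts in WT and 13, 9 and 6 counts in KD without LPS, and 9, 21 and 10 counts in WT and 18, 26 and 31 counts in KD with LPS (difference 2.99 ± 0.55, edgeR adjusted p = 0.0164). Whether the counting used strand is not given in the sources used here, so that its reads and those of its partner on the other strand cannot be told apart. UNC5C-AS1 (chr4:96470280-96473608), also antisense by name, held 23, 5 and 19 counts in WT and 0, 0 and 1 counts in KD without LPS, and 3, 4 and 4 counts in WT and 10, 7 and 17 counts in KD with LPS; it passed (edgeR adjusted p = 0.0361), and no fold is given because its KD libraries without LPS were under the floor. Of the 10, 7 were lower in KD than in WT without LPS (5.85% of all genes) and 4 were higher with LPS (6.29% of all genes), namely PHACTR3, CD300A, LDLRAD4 and EVI2B. Leaving out single libraries moved the calls of this group most: PHACTR3 passed in 10 of the 12 fits, RP11-196G18.23 in 8, RSRP1 in 5, UNC5C-AS1 and LDLRAD4 in 4, ITM2C, CD300A and IL6R in 3, and HIPK1 and EVI2B in 2.

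**Figure D5:**
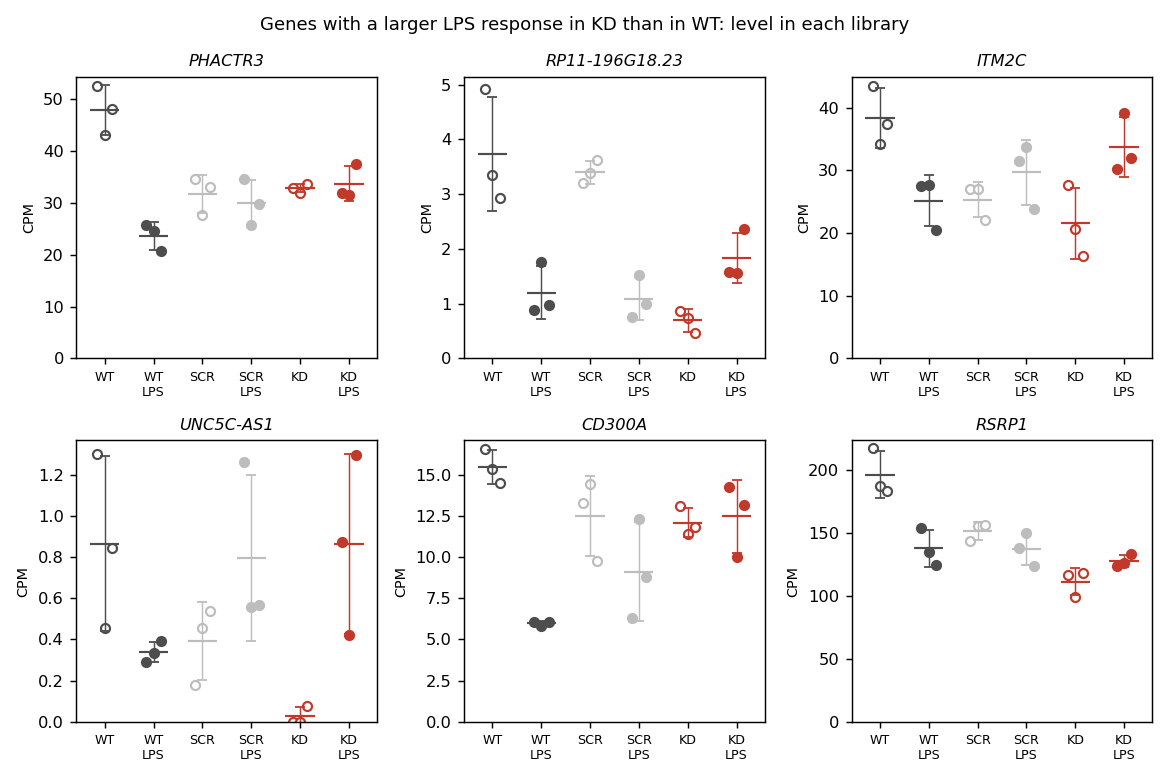
CPM on a linear axis from zero in each of the 18 libraries for PHACTR3, RP11-196G18.23, ITM2C, UNC5C-AS1, CD300A and RSRP1, with open circles for libraries without LPS, filled circles for libraries with LPS, and the mean and SD of each group of 3 as a bar with whiskers. In the WT columns the filled circles lie below the open ones for all 6 genes, as for PHACTR3 at 20.7 to 25.8 CPM against 43.0 to 52.5 CPM, and in the KD columns they overlap with the open ones or lie above them.

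The SCR libraries, which do not enter the difference, allowed genes to be picked by their LPS response elsewhere. Among 1441 genes that rose on LPS in SCR (8.64% of those tested), 43 had a smaller response in KD than in WT and 0 a larger one. The share past the threshold was 2.98%, against 0.360% of all genes. The median difference went with the size of the rise. It was -0.64 for 117 genes that rose by over 2 on the log2 scale, of which 96 were below zero (82.1%) and 13 passed (11.1%). It was -0.23 for 336 genes that rose by 1 to 2, of which 18 passed (5.36%). For 988 genes that rose by up to 1 it was -0.03, and 12 passed (1.21%). Over all genes tested 8003 were below zero (48.0%). Among 1428 genes that fell on LPS in SCR (8.56%), the median was 0.06. Of these, 4 had a larger response in KD (RP11-196G18.23, LDLRAD4, HIPK1 and EVI2B) and 1 a smaller one (KLHDC7B). Together they were 0.350% of that set, near the 0.360% of all genes.

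The last comparison set the TRAFD1 siRNA beside the control siRNA. The LPS response of SCR minus that of WT, which shares the WT libraries with the values above, had 39 genes past the threshold, 36 smaller (0.216%) and 3 larger (0.0180%), together 0.234%. For the 50 genes of smaller response in KD, the difference of SCR from WT had a median of -0.80 and ran from -2.29 to -0.30, beside the median of -1.01 for KD. The 50 were chosen on a difference from the same WT libraries, so the choice alone draws the SCR values below zero, by an amount that was not computed, and the values are a description. CCL4L1 had -2.29 ± 0.25 in SCR beside -2.63 ± 0.25 in KD, CD83 -1.55 ± 0.17 beside -1.45 ± 0.17, TNF -1.42 ± 0.21 beside -1.76 ± 0.21, and RELB -1.67 ± 0.23 beside -1.32 ± 0.23. TNF was at 46.9, 47.9 and 35.1 CPM in the SCR libraries without LPS, all above the WT libraries and overlapping with the KD libraries, and at 129, 145 and 157 CPM with LPS, overlapping with WT and above KD. For the 10 genes of larger response the medians were 0.75 in SCR and 1.16 in KD.

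The test of the difference between both siRNAs, the LPS response of KD minus that of SCR, used no WT library. By edgeR 0 of 16678 genes passed (0%), with 1274 whose p was under 0.05 before adjustment. The number was 3 by DESeq2, and 132 by edgeR when no gene was filtered out. The 3 genes, named after their values were seen, were RP11-196G18.23 (DESeq2 log2 2.96, adjusted p = 0.0233), AC138783.11 (3.74, adjusted p = 0.0487) and ENSG00000240291 (1.97, adjusted p = 0.0397). Over the 50 genes the median of KD minus SCR was -0.20, from -0.68 to 0.34, and the smallest adjusted p was 0.603; over the 10 it was 0.39 and 0.274. For single genes the value of KD minus SCR was -0.35 ± 0.22 for CCL4L1, -0.33 ± 0.21 for TNF, 0.09 ± 0.17 for CD83, -0.12 ± 0.13 for RCAN1, -0.51 ± 0.23 for HMOX1 and -0.61 ± 0.33 for GBP1. EVI2B had 0.71 ± 0.20 and RP11-196G18.23 2.97 ± 0.55, with 3.20, 3.38 and 3.62 CPM in SCR without LPS beside 0.873, 0.744 and 0.467 CPM in KD. A p above the threshold does not show that both siRNAs gave equal responses, and a difference of the size of these SEs was not detectable with 3 libraries per group.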

How the data were processed

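Libraries were made from THP-1 RNA with a QuantSeq 3-prime kit. The authors removed low-quality, adaptor and poly-A reads, aligned the rest to GRCh37 with HISAT, and counted them with featureCounts of RSubread on Ensembl 75 genes limited to their last 500 bases; the deposited values are raw counts per gene, 1 column per library, with replicates not pooled. The HISAT version and the strand setting were not given in the sources used here. All 18 columns were used.

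Genes were filtered with filterByExpr by group, and group means were estimated jointly over the 18 libraries by the quasi-likelihood F test of edgeR (4.0.16, under R 4.3.3) after TMM scaling, and p-values were adjusted by Benjamini-Hochberg over 16678 genes at a threshold of 0.05. CPM are counts divided by the TMM-scaled library total and multiplied by 1e+06. SE are those of log2 fold changes. With 3 libraries per group the smallest exact permutation p of 1 gene is 0.1, so the model across genes was used. The labels give triplicates without naming separate cultures or days, and p-values measure the spread between these libraries, which may be technical; the lowest chi-square per degree of freedom between 2 replicates was 5.29, above sampling noise.

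Symbols and coordinates came from GENCODE v44lift37 (GRCh37), which matched 55665 of 63677 identifiers. Beside the chemokines named in the report, the list symbols GARS, SARS, SOD2 and TRAC were not matched. The list counts leave these symbols out, though their genes may have been tested under an identifier without a symbol. Promoters were those of RefSeq on GRCh38.p14. On simulated counts for this difference (16308 genes), 50.0% and 44.9% of genes changed by -1 and 1 on the log2 scale were called, 72.9% and 78.0% of those changed by -2 and 2, and 0.0434% of unchanged genes. The simulated libraries had no LPS effect, no library that stood apart and no trend with GC content, and only KD_LPS was changed. These shares therefore check the code and are not the error rates of the real libraries.

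The members and lists were chosen with earlier results of these data known. Named genes were TRAFD1, the 12 genes of smallest p per direction past the threshold with a symbol (copies once), up to 3 members past the threshold per list or else the member of smallest p, and 4 genes known to rise on LPS (TNF, IL1B, CXCL8, NFKBIA); other names are marked as chosen after their values were seen, and 1 gene past the threshold is not reported here. The trans-mediated list was taken from the study, and the others from general knowledge. Alternatives were DESeq2 1.42.0, RLE scaling, no filter, the 12 libraries alone, a replicate block, a GC correction, both together, stricter thresholds and leaving out each library.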

Additional observations from a re-analysis of the deposited data

Results flagged for a closer look

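Results are listed here because the LPS response of KD and that of WT differed by the interaction test of edgeR, which 60 of 16678 genes passed. With 1 line and 3 libraries per group these are differences between 2 sets of libraries; the KD_unstimulated replicate 1, without which 1313 genes passed, is described in the report. Among the named genes, responses were smaller in KD for the chemokines and cytokines CCL4L1 (-2.63), CCL4L2 (-2.62), CCL3L1 (-1.83), TNF (-1.76) and LTB (-0.88) and for the enzyme IL4I1 (-1.43). They were smaller for RELB (-1.32), ZC3H12A (-1.14) and TNIP1 (-0.78) in the NF-kB pathway. They were also smaller for the surface molecules ICAM1 (-1.63), CD83 (-1.45), CD44 (-0.90) and SDC4 (-0.98), for HMOX1 (-1.30), SQSTM1 (-0.68) and FTH1 (-0.60), and for GBP1 (-1.65), RCAN1 (-1.08), PSTPIP2 (-0.89) and ISG20 (-0.60).

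Responses were larger in KD for PHACTR3 (1.06), CD300A (1.41), LDLRAD4 (1.32), ITM2C (1.26), EVI2B (0.95), RSRP1 (0.71), HIPK1 (0.64), IL6R (0.56) and the antisense transcript RP11-196G18.23 (2.99). Larger is meant with its sign here. The fitted level of each of these genes fell on LPS in WT, and in KD this fall was weaker or turned to a rise. UNC5C-AS1 had a fitted value of 6.01, which depends on the prior count because its KD libraries without LPS held 0, 0 and 1 counts, and is no bound on a fold.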

How the results depend on the processing

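The count of 60 genes (10 larger, 50 smaller) became 275 with DESeq2 (113 and 162), 729 with no filter on low counts (536 and 193), 23 with the 12 WT and KD libraries alone (2 and 21), 10 at an adjusted p of at most 0.01 with an absolute log2 above 1, and 60 with RLE scaling; a GC correction gave 79 (6 and 73). The cause was not tested except that the 12 libraries alone are fewer samples. Leaving out 1 library gave 21 to 1313 genes. Whether the replicate numbers pair KD with WT is not given by the labels and was not settled. Of 6 same-numbered pairs, 1 had a correlation of deviations over 0.1 (-0.0737 to 0.304), and 1 of 3 libraries per state correlated best with its own number. The highest value was that of replicate 1 without LPS, whose WT and KD libraries also had similar correlations with GC content (-0.322 and -0.300). In WT and SCR, all 3 pairs with LPS were over 0.1 (0.163 to 0.261) and 0 of 3 without LPS. The replicate block gave 547 genes (368 and 179), more larger than smaller as with no filter, and 451 with the GC correction as well (219 and 232). The median of all genes lay between -0.0551 and 0.0354 in every fit. Of the 60 genes, 57 passed with DESeq2, 60 with no filter and 60 with the block. List members past the threshold went from 22 to 37 with DESeq2, 56 with no filter (24 larger), 11 with the 12 libraries, 50 with the block, 53 with the block and GC correction, and 9 to 92 without 1 library. The TRAFD1 difference (1.00) passed with no filter (1.01), the block (1.07) and the block with GC correction (1.06), and ran from 0.756 to 1.28 without 1 library. SCR minus WT went from 39 genes to 85 with DESeq2 and 241 with no filter, and KD minus SCR from 0 to 3 and 132. The sign turned for COL1A1 without the KD_unstimulated replicate 3 (range without 1 library -0.89 to 0.16), and for CD79B without the WT_unstimulated replicate 1 (0.051), the WT_LPS replicate 5 (0.23) or the KD_unstimulated replicate 2 (range -1.06 to 0.56), neither past the threshold. Counts of the LPS response in WT and KD and of KD against WT in each state, for which DESeq2, no filter and the block were added after seeing the data, stayed within 1.5 times in total, but genes that rose in KD went from 1069 to 1652 with the block. Depth limits genes near the floor of 0.133 to 0.294 CPM, such as UNC5C-AS1.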
